A study of Mus musculus with 24 samples.

Results

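The 9 genes described here encode the invariant chains of the T cell receptor complex and the proteins that act next to it: Cd3d, Cd3e, Cd3g, Cd247, Lck, Zap70, Lat, Lcp2 and Themis. They were taken by name, as every non-control probe whose gene name column on the array held one of the 9 symbols. This gave 13 probes of 55681, with 2 probes each for Cd247, Zap70, Lcp2 and Themis and 1 each for the other 5 genes. All 13 probes passed the filter on dim probes, as did 95.2% of all probes.

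T cell receptor alpha and beta chains carry no signalling tail of their own. The CD3 delta, epsilon and gamma chains and the zeta chain, encoded by Cd247, carry it for them, in tyrosine motifs called ITAMs. Lck phosphorylates these motifs, the kinase ZAP-70 binds the phosphorylated motifs, and ZAP-70 then phosphorylates the adaptors LAT and SLP-76, the product of Lcp2. In the thymus this machinery first serves the pre-T cell receptor of DN3 cells and then the selection of double-positive cells, in which Themis takes part. B cells use CD79a, CD79b and Syk at the corresponding steps of their own receptor.

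The series measured amplified RNA of sorted mouse lymphocytes on 24 single-colour arrays in 8 groups. Thymocytes of the Foxn1 heterozygous (+/-) thymus, here wt, were DN3 cells (arrays 7, 8 and 9), DP cells (2, 3 and 3A), SP4 cells (10, 11 and 12) and SP8 cells (13, 14 and 15). Thymus lacking Foxn1 (-/-) and carrying transgenes that the labels used here do not name gave tg DP cells (4, 6, 6A and 6B) and tg IgM- B cells (22 and 23). Wild-type fetal liver gave IgM- B cells (16, 17 and 18) and IgM+ B cells (19, 20 and 21). Foxn1 is the transcription factor of thymic epithelium, the tissue in which thymocytes develop. The SP4 samples were grouped by title, since another of their labels also names SP8. Titles that share a number (3 with 3A, and 6 with 6A and 6B) may be repeats of 1 sample. Nothing in the labels ties the replicates to separate mice, so a p-value here covers the spread among these arrays only, part of which may be technical. A level below is the log2 of the processed signal relative to the 75th percentile of its array, and levels of different probes are not comparable with each other.

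The arrays differed in quality and in slide. The share of probes well above background ran from 80.5% to 96.6%, lowest on tg B 23, where the median signal was 125 against 208 to 314 on the other arrays. The first principal component, with 18.0% of the variance, set tg B 23 (311), IgM+ 21 (165) and tg DP 4 (70.4) apart from the others at -87.3 to 37.1. Slide and lineage nearly coincided: of the wt thymocyte and fetal liver B arrays, slide 1 held SP4 11 and IgM+ 19, slides 2 and 3 held only thymocytes, and slide 4 only B cells. The labels were set against marker genes. Mean levels over 8 probes of T cell markers ran from -3.16 to -0.45 on wt thymocyte arrays, from -4.72 to -3.43 on fetal liver B arrays and from -3.82 to -3.58 on tg B arrays, so that no array of the wt thymocytes reached down into the fetal liver range. Of these markers the T cell transcription factor Tcf7 passed the test between wt thymocytes and fetal liver B cells on both of its probes, by 4.50 ± 0.66 and 4.29 ± 0.64 (SE, adjusted p = 0.0301 each). With slide as a block these were 3.33 (adjusted p = 0.621) and 4.31 (adjusted p = 0.216). Over 12 probes of B cell markers, means ran from -0.40 to 0.11 in fetal liver IgM- cells, from -1.003 to -0.02 in IgM+ cells, from -0.91 to -0.59 in tg B cells and from -1.08 to -0.57 on all thymocyte arrays. The tg B and IgM+ ranges thus overlapped that of the thymocytes, and these markers set only the IgM- arrays apart.

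The sequences of 5 probes are shown, since they tell which part of a transcript a value comes from. The arrays annotate every member by position in mouse build mm9. The Cd3d probe covers chr9:44794171-44794402 on the plus strand, an interval of 232 bases for a probe of 60, and the first Cd247 probe, A_52_P173555, covers chr1:167786567-167787585 on the plus strand, an interval of 1019 bases. Both intervals are longer than the probe, so these probes join exons. The other 11 members lie in intervals of 60 bases. Capitals mark a 12-base pattern, TAT or TAC, then any 6 bases, then a codon for leucine or isoleucine, the order of letters in each arm of an ITAM. The pattern stands in capitals where it occurs in a pair with starts 27, 30 or 33 bases apart.
Cd3d A_51_P285206: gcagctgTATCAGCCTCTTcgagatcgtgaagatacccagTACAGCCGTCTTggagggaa
Cd247 A_52_P173555: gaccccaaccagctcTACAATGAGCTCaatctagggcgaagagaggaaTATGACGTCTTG
Lat A_51_P495242: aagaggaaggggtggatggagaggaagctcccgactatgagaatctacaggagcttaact
Zap70 A_55_P2153122: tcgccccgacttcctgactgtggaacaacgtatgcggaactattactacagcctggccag
Themis A_52_P641716: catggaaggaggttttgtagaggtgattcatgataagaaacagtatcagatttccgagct

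Such a pair, read on the printed strand, occurred in 2 of the 13 member probes, Cd3d and Cd247 A_52_P173555, and in 80 of all 55681 probes (0.144%). At least 1 single pattern occurred in 19.8% of all probes. These probes thus carry both arms of an ITAM in a spacing that was searched for, and the 0.144% holds for the searched spacings only. The polyadenylation letters AATAAA stood in 2 member probes, those of Cd3e and Lck, against 10.1% of all probes. A reading frame with no stop codon was open through 12 of 13 members and through 79.3% of all probes. On chromosome 9 the Cd3g probe (chr9:44777868-44777927, minus strand), the Cd3d probe and the Cd3e probe (chr9:44806828-44806887, minus strand) lie within 29.0 kb. Whether the other probes lie in a coding or untranslated exon was not given in the sources used here.

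None of the 13 probes passed at a Benjamini-Hochberg adjusted p under 0.05 in limma's fit, in any of 9 comparisons or in the F test over the 8 groups. The background was low too: in wt thymocytes against fetal liver B cells 0.0491% of all tested probes passed, and in the F test 0.102%. The members split by how they varied. The probes of Cd3e and Lat held nearly the same level on all arrays, B cells included. Those of Lck and the second Zap70 probe, A_55_P1969861, ranged from 1.11 to 2.32 and from 1.56 to 3.01, with tg B 23 the highest for Lck and the lowest for Zap70. The probes of Cd3d, Themis and Cd247 (A_52_P173555) and 1 of Lcp2 ranged widely and lay mostly higher on thymocyte than on B cell arrays, with a spread inside groups that was almost as wide. The residual SD within groups was 0.11 for Cd3e, 0.14 for Lat, 0.24 for Lck and 0.25 for Zap70 A_55_P1969861, against a median of 0.57 over all tested probes. It was 0.74 for Cd247 A_52_P173555, 1.02 and 1.45 for the Themis probes, 1.12 for Cd3d and 1.26 for Lcp2 A_66_P136354. The Cd3e probe was more even than all but 0.406% of tested probes and the Lat probe than all but 2.13%. This ranking was not matched for signal level. Mean levels over the 24 arrays were 0.59 for Cd3e and 3.64 for Lat, against -1.97 for Cd3d and -5.53 for Themis A_55_P1972436. Lcp2 A_55_P2180949, at a mean of -1.71, had a residual SD of 0.35.

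**Figure D1:**
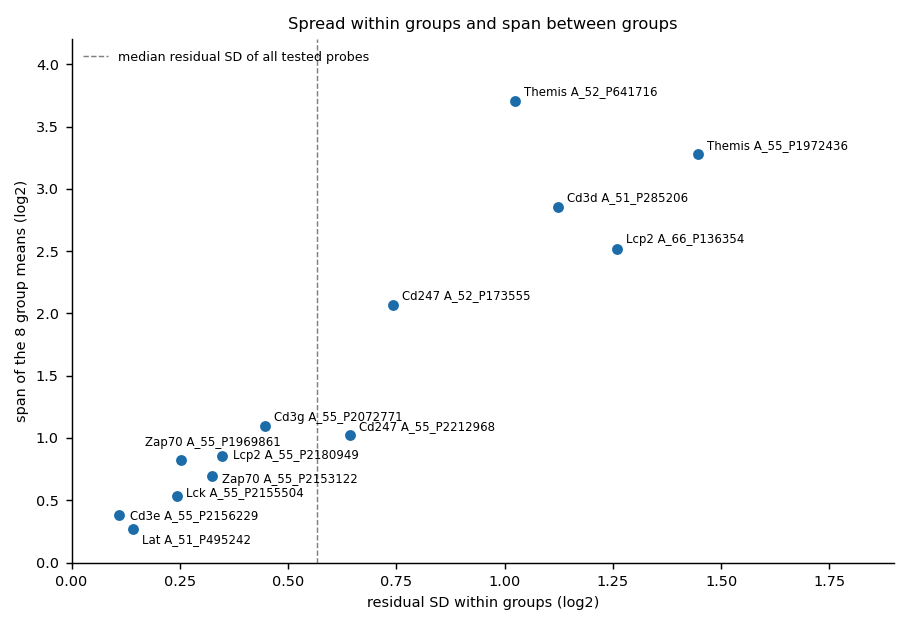
Residual SD within groups (log2, horizontal axis) and span between the lowest and highest of the 8 group means (log2, vertical axis) for the 13 member probes, one point each; the dashed line is the median residual SD of all tested probes, 0.57. Probes with a wide span between groups also had a wide spread within groups: Cd3e and Lat lie at the lower left, with spans of 0.38 and 0.27, and the first Themis probe at the top with a span of 3.71.

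Among the CD3 chains, Cd3d, the delta chain, had the widest range. In DN3 cells its level was -1.29, -0.12 and -0.80 (arrays 7, 8 and 9) and in wt DP cells -2.12, -1.35 and -1.92 (3A, 2 and 3). In SP4 cells it was 0.95, -3.71 and -1.01 (10, 11 and 12) and in SP8 cells -1.45, -3.02 and -0.33 (13, 14 and 15). SP4 held both the highest and the lowest thymocyte array, so its SD, 2.34, exceeded the range of the group means in the 4 wt thymocyte groups. Fetal liver IgM- cells gave -2.48, -2.55 and -2.95, IgM+ cells -2.22, -3.75 and -3.36, and tg B cells -3.16 and -4.04. Of the 12 wt thymocyte arrays, 10 lay above the highest fetal liver B array, and SP4 11 and SP8 14 did not. The difference was 1.54 ± 0.53 (SE, 95% interval 0.41 to 2.66, adjusted p = 0.250 in limma).

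The epsilon chain, which pairs with delta and with gamma, had a probe that hardly moved. Cd3e measured 0.46 ± 0.05 (SD, n = 3) in DN3, 0.58 ± 0.11 (n = 3) in DP, 0.46 ± 0.16 (n = 3) in SP4 and 0.54 ± 0.13 (n = 3) in SP8 cells. It measured 0.69 ± 0.08 (n = 3) in IgM-, 0.84 ± 0.02 (n = 3) in IgM+ and 0.63 ± 0.03 (n = 2) in tg B cells. The IgM+ arrays, at 0.83, 0.86 and 0.83, were the 3 highest of all 24, and 8 of 12 wt thymocyte arrays lay below the lowest fetal liver B array. The difference of wt thymocytes from fetal liver B cells was -0.25 ± 0.09 (SE, 95% interval -0.44 to -0.07, adjusted p = 0.243), and -0.26 with slide as a block. The probe thus read B cells at least as high as thymocytes, on a span of group means of 1.30-fold.

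Cd3g, the gamma chain, measured -1.98, -0.54 and -0.97 in DN3 cells (7, 8 and 9) and -2.16, -2.38 and -2.22 in wt DP cells (3A, 2 and 3). Its other group means lay between -2.17 in tg B and -1.62 in SP4 cells. Between wt thymocytes and fetal liver B cells the difference was 0.03 ± 0.22 (95% interval -0.44 to 0.50).

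Cd247 encodes the zeta chain and splice forms of it. The probe A_52_P173555, over the ITAM stretch printed above, measured -1.87, -1.51 and 0.53 in DN3 cells (7, 8 and 9), -2.66, -2.61 and -2.03 in wt DP cells (3A, 2 and 3) and -1.44, -0.01, -1.29 and -1.29 in tg DP cells (4, 6, 6A and 6B). SP4 cells gave -2.36, -1.39 and -0.19, and SP8 cells -1.81, -1.60 and -1.36. All 8 B cell arrays were at or under -1.76, the lowest being tg B 23 at -3.71. The other probe, A_55_P2212968 (chr1:167800324-167800383, plus strand), ranged from -3.00 to -0.06 over the 24 arrays with group means from -2.67 in tg B to -1.65 in SP8 cells. The array annotates these probes to different transcript variants, and they went together only weakly (Pearson r = 0.17, Spearman rho = 0.17, n = 24 arrays).

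**Figure D2:**
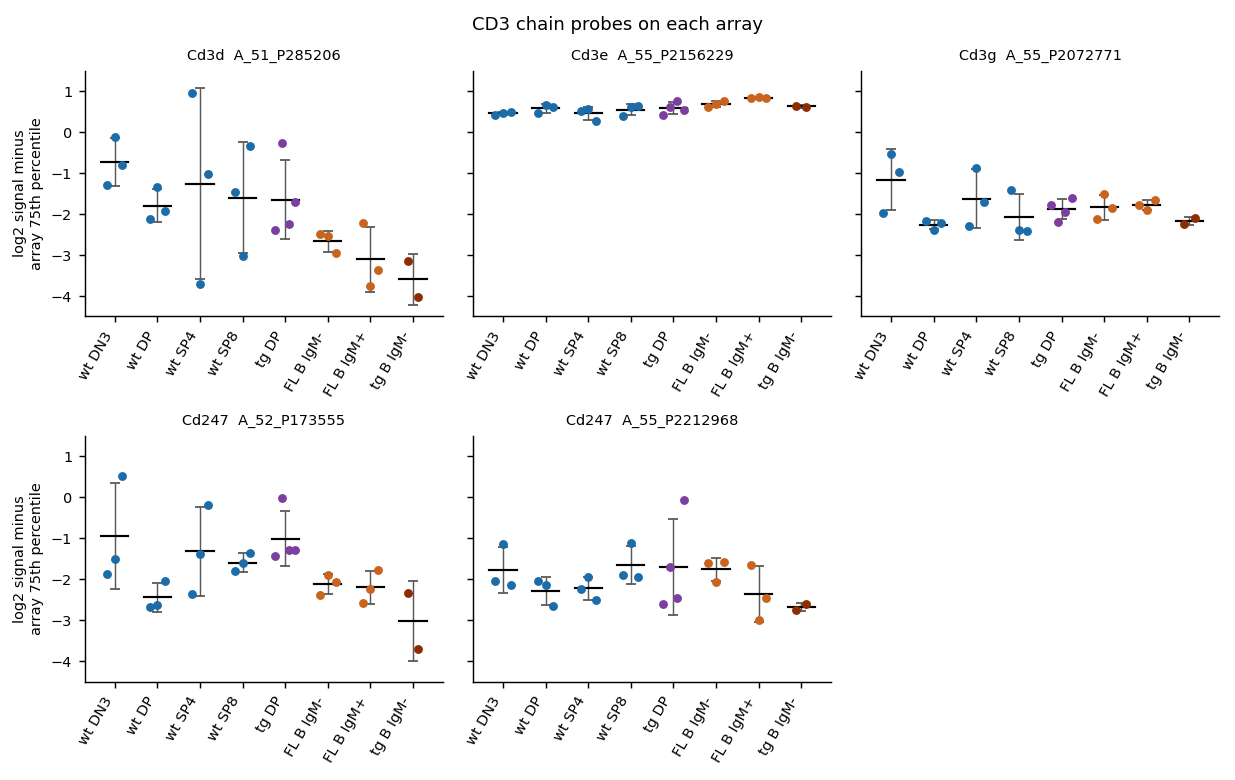
Levels of the 5 CD3 chain probes (log2 signal minus the 75th percentile of the array) by group; points are arrays, horizontal lines group means and bars ± 1 SD, with wt thymocytes in blue, tg DP in purple, fetal liver (FL) B cells in orange and tg B cells in brown. Cd3e keeps 0.27 to 0.86 on every array, while Cd3d in SP4 cells reaches from -3.71 to 0.95.

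Lck, the kinase that starts the cascade (chr4:129225614-129225673, minus strand), had group means from 1.39 in wt DP to 1.92 in tg B cells. Its 12 wt thymocyte arrays ran from 1.15 to 1.72 with a median of 1.46, and its 6 fetal liver B arrays from 1.48 to 1.896 with a median of 1.66. The ranges overlapped, and the difference was -0.20 (95% interval -0.48 to 0.08). The probe of tg B 23 stood at 2.32, the highest of all.

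Zap70 encodes the kinase that binds phosphorylated ITAMs, and both of its probes lie near each other on chromosome 1. The probe A_55_P2153122 (chr1:36839315-36839374, plus strand) had group means from -1.28 in IgM+ to -0.58 in tg B cells. The probe A_55_P1969861 (chr1:36839542-36839601, plus strand) had means from 2.01 in tg B to 2.84 in wt DP cells, and 11 of 12 wt thymocyte arrays were above the fetal liver B mean. Its difference between these lineages was 0.18 (95% interval -0.11 to 0.47). The Zap70 probes did not follow each other over the 24 arrays (r = -0.19, rho = 0.07).

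Lat, the membrane adaptor (chr7:133507719-133507778, minus strand), spanned 0.27 in its group means, from 3.47 in wt DP to 3.74 in IgM- cells, a 1.21-fold range. Its wt thymocyte arrays ran from 3.34 to 3.87 and its fetal liver B arrays from 3.57 to 3.92. The difference was -0.14 ± 0.10 (SE, 95% interval -0.34 to 0.07), so that a thymocyte level more than 0.07 above the B cell level lies outside the interval. It was -0.55 with slide as a block.

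Lcp2 encodes SLP-76, the adaptor that joins LAT. Its probe A_55_P2180949 (chr11:33989870-33989929, plus strand) stayed between -2.19 and -0.53 on all 24 arrays. Its probe A_66_P136354 (chr11:33992133-33992192, plus strand) ran from -3.46 to -0.92 on wt thymocyte arrays, while 5 of 6 fetal liver B arrays lay at -4.02 or lower and IgM+ 19 at -1.58. The difference for this probe was 1.49 ± 0.60 (SE, 95% interval 0.23 to 2.74, adjusted p = 0.323), or 0.91 with normexp background correction. On tg DP 4 it was not well above background. The Lcp2 probes correlated at r = -0.11 and rho = 0.07 over the 24 arrays.

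Themis, a regulator of selection in DP cells, had the lowest adjusted p of the F test among the members, 0.191 for A_52_P641716 (chr10:28502071-28502130, plus strand), followed by Cd247 A_52_P173555 at 0.340. DN3 cells gave -1.26, -0.56 and -0.62 (7, 8 and 9), wt DP cells -0.70, -2.14 and -1.79 (3A, 2 and 3) and tg DP cells -2.40, -0.76, -1.43 and -0.93 (4, 6, 6A and 6B). SP4 cells gave -1.02, -5.28 and -3.02 (10, 11 and 12), of which SP4 11 was not well above background, and SP8 cells -0.03, -1.96 and -2.13. The B cell arrays lay at -2.43, -2.12 and -3.43 in IgM-, -2.75, -3.12 and -4.09 in IgM+ and -4.48 and -4.56 in tg B cells. Of the 12 wt thymocyte arrays 8 were above the highest fetal liver B array, and the difference was 1.28 ± 0.49 (SE, 95% interval 0.25 to 2.31, adjusted p = 0.294).

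The other Themis probe, A_55_P1972436 (chr10:28602460-28602519, plus strand), was well above background on 7 of 12 wt thymocyte arrays and 3 of 4 tg DP arrays and on none of the 8 B cell arrays. It passed the filter on dim probes only through wt DP cells, a thymocyte group, with all 3 arrays well above background. It was thus tested because it was high in a group on the thymocyte side. Its highest levels were -2.12 and -2.51 on tg DP 6B and 6 and -2.62 on SP4 11, the array on which the first Themis probe was lowest. Each fetal liver B array was then counted at its lowest signal well above background over all probes. Where the probe's own level was higher, that level was used. So counted, the wt thymocyte mean was 1.60-fold (0.68 on the log2 scale) above the fetal liver B mean. That lowest signal is no detection limit for this probe, so the value is not a lower bound. On DN3 7 the probe read -4.83, above the array's lowest of -5.09, but was not well above background. The 1.60-fold value concerns the means and not the spread of the arrays. The measured means were -4.96 and -6.93, a difference of 1.96 ± 0.69 (SE, adjusted p = 0.253). With normexp background correction the difference was 0.56, under the 0.68 given above. The Themis probes correlated at r = 0.36 and rho = 0.47 over the 24 arrays.

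**Figure D3:**
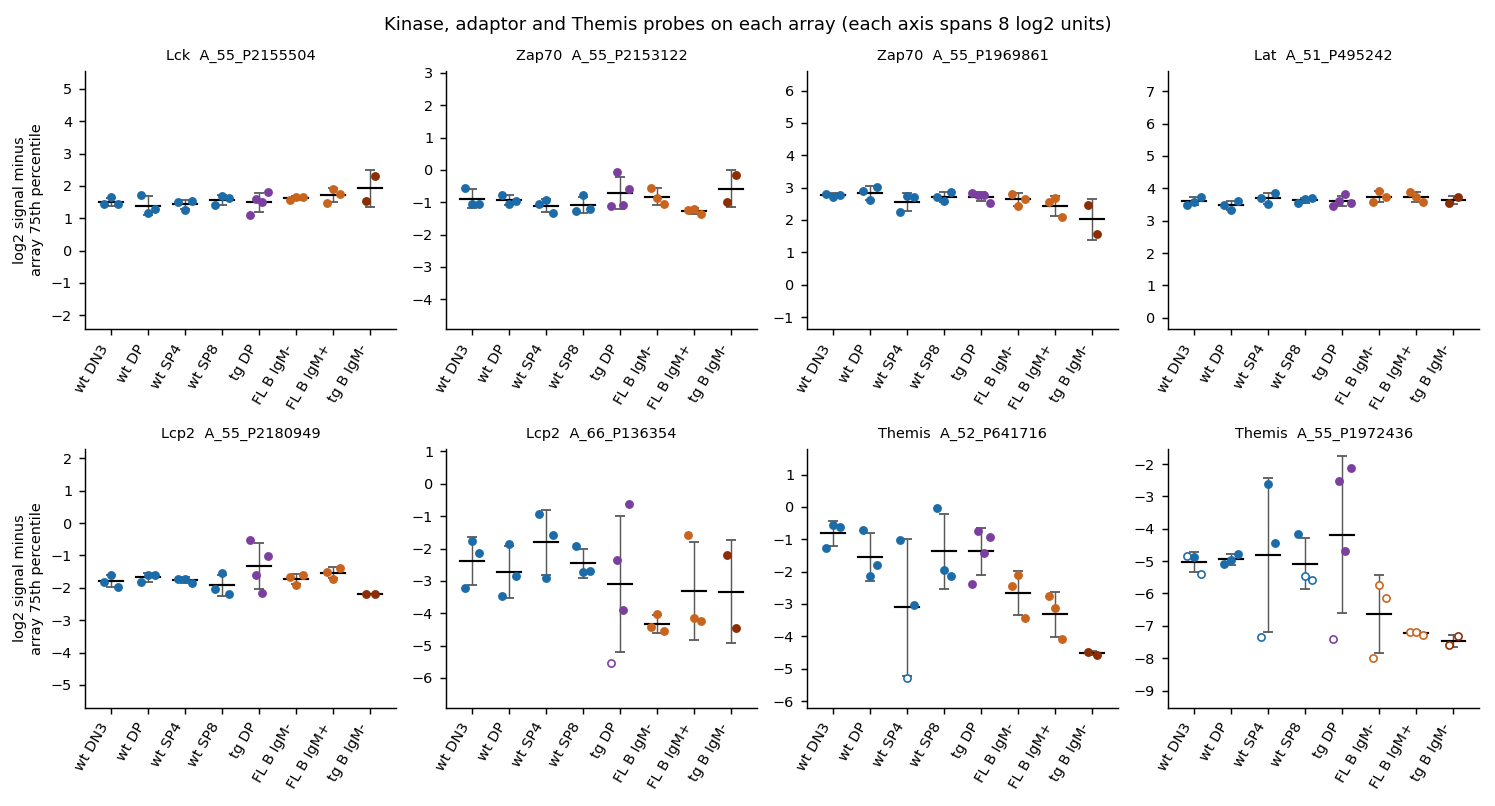
Levels of the 8 kinase, adaptor and Themis probes by group (log2 signal minus the 75th percentile of the array); points are arrays, open where the probe was not well above background, lines are group means and bars ± 1 SD, and each vertical axis covers 8 units around the probe's own mean. Lat lies flat across all groups, while the means of the first Themis probe run from -0.81 in DN3 to -4.52 in tg B cells, with SP4 arrays from -5.28 to -1.02.

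Each probe's 8 group means were ranked to see which neighbours in the order have array ranges apart. Of the 91 steps between neighbouring groups 6 had array ranges that did not overlap (6.59%), against 2.28% of such steps over all tested probes. They include the step of Themis A_55_P1972436 from IgM+ (-7.22) to tg B cells (-7.46), where no array was well above background. They also include its step from SP8 (-5.08) to IgM- cells (-6.63), with no IgM- array well above background.

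The comparison of lineages asked whether genes of the T cell receptor separate wt thymocytes from fetal liver B cells (12 against 6 arrays). At an unadjusted p under 0.05 stood 5 of 13 member probes, against 12.0% of all tested probes: Cd3d, both Themis probes and Lcp2 A_66_P136354 were higher in thymocytes, and Cd3e was lower. Of these, Themis A_55_P1972436 passed the filter only through wt DP cells, so its place in this count is not independent of the filter. The median difference of the 13 members was 0.07, and that of all tested probes was 0.07; with slide as a block they were -0.26 and -0.02. No member had all thymocyte arrays on one side of all B arrays, as 0.323% of all tested probes did. Of the 5 differences at an unadjusted p under 0.05, 3 changed direction with slide as a block. In that fit Cd3d was at -1.86, Themis A_52_P641716 at -1.66 and Lcp2 A_66_P136354 at -3.03, while the other Themis probe kept 1.68. Some members above that p changed direction too. Cd247 A_55_P2212968 went from 0.07 to -1.17, Lcp2 A_55_P2180949 from -0.16 to 0.30 and Zap70 A_55_P2153122 from 0.05 to -0.05. Slide 1, the only slide with both lineages, held 1 array of each of the compared classes, SP4 11 and IgM+ 19, and also tg DP 4. SP4 11 minus IgM+ 19 was -1.49 for Cd3d, -2.53 and 4.57 for the Themis probes, -1.33 for Lcp2 A_66_P136354 and 1.195 for Cd247 A_52_P173555. For Cd3d, Themis A_52_P641716 and Lcp2 A_66_P136354, tg DP 4 was at -2.38, -2.40 and -5.55. For the same probes IgM+ 19 was at -2.22, -2.75 and -1.58. Beyond these arrays of slide 1, lineage and slide cannot be told apart, nor can RNA per cell and the share of cells that carry it in any sorted sample. Without SP4 11 the Cd3d difference was 1.84 (adjusted p = 0.0970) and that of Themis A_52_P641716 was 1.55 (adjusted p = 0.134).

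**Figure D4:**
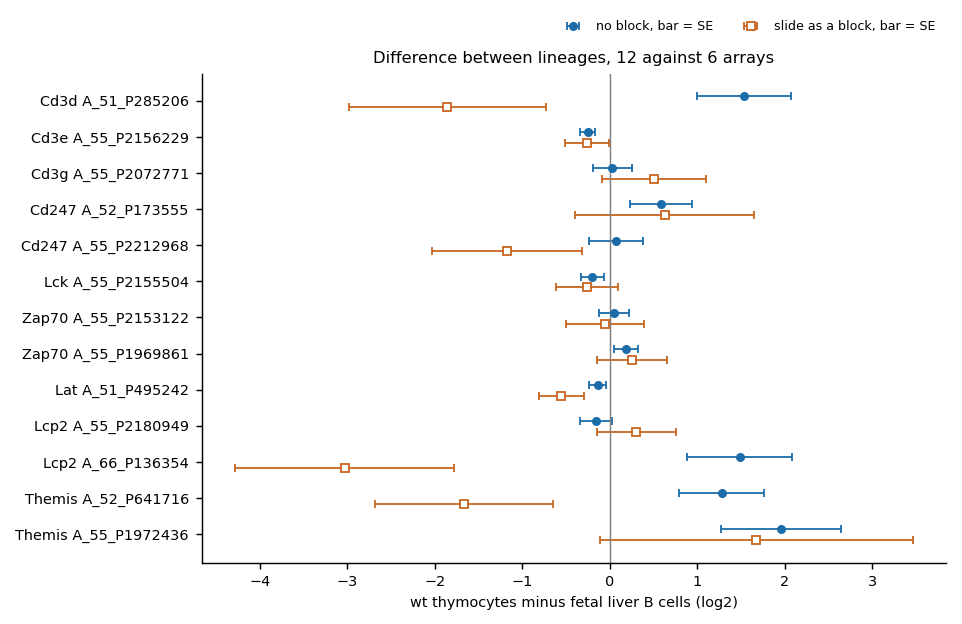
Difference of wt thymocytes (12 arrays) from fetal liver B cells (6 arrays) for the 13 member probes on the log2 scale, as circles without a block and as squares with slide as a block; bars are ± 1 SE of limma's fit. The circles of Cd3d, Lcp2 A_66_P136354 and Themis A_52_P641716 lie at 1.28 to 1.54 and their squares at -3.03 to -1.66.

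Within the heterozygous thymus the step from DN3 to DP spans beta selection. No probe of the whole array passed in this comparison (0%), and 2.05% of all tested probes had an unadjusted p under 0.05, among them 2 members. In DP cells Cd3g was at -1.10 ± 0.36 (SE) relative to DN3 and Cd247 A_52_P173555 at -1.49 ± 0.58 (adjusted p = 1.0 each). Every DN3 array was above every DP array for these probes and for Cd3d (-1.06 ± 0.87), which makes 3 of 13 members, 23.1%, against 5.28% of all tested probes. Of the remaining CD3 chain probes, Cd247 A_55_P2212968 was at -0.51 ± 0.51, with overlapping arrays, and Cd3e at 0.12 ± 0.14. On slide 2, which held the 3 DP arrays and DN3 7, the differences were -0.28 for Cd3g, -0.57 for Cd247 and -0.51 for Cd3d, all smaller than over both slides. With slide as a block they were -0.80, -0.99 and -0.07. Without DN3 9 the Cd247 difference was -0.75.

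Both single-positive groups were set against DP cells to follow selection. No tested probe of the array passed for SP4 or for SP8 (0% each), and no member had an unadjusted p under 0.05 in either, against 6.42% and 2.29% of all tested probes. Both Cd247 probes had all SP8 arrays above all DP arrays, 2 of 13 members or 15.4%, against 5.0% of all tested probes. All SP8 arrays were on slide 3 and all wt DP arrays on slide 2. With slide as a block, which rests here on the other groups, the difference of A_52_P173555 was 0.10 in place of 0.85 and that of A_55_P2212968 was 0.93 in place of 0.63. Between SP4 and SP8 cells Themis A_52_P641716 differed by -1.73 ± 0.80 (unadjusted p = 0.043, adjusted p = 0.951), where 5.18% of all tested probes had an unadjusted p under 0.05. This value rested on SP4 11, the only SP4 array on slide 1: without it the difference was -0.65. It was -2.78 without SP4 10 and -1.06 without SP8 13.

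The tg and wt DP cells, from thymus that differs in Foxn1 and in the unnamed transgenes, were compared on 4 and 3 arrays. No probe of the array passed (0%), and 1 member had an unadjusted p under 0.05, against 3.21% of all tested probes. This was Cd247 A_52_P173555, at 1.43 ± 0.55 (SE, 95% interval 0.28 to 2.58, unadjusted p = 0.017, adjusted p = 1.0), a 2.69-fold higher level in tg DP. All 4 tg arrays lay above all 3 wt arrays, as for 2.32% of all tested probes. The difference was 1.57 on slide 2, with tg DP 6, 6A and 6B against wt DP 2, 3 and 3A. By their titles these tg arrays may all be repeats of 1 sample, as may wt DP 3 and 3A. With arrays of one title number averaged the difference was 1.33. It was 1.10 without tg DP 6. The other Cd247 probe was at 0.58 ± 0.48 and overlapped. For Cd3e (0.01, 95% interval -0.27 to 0.29), Lat (0.13, -0.18 to 0.44) and Lck (0.11, -0.32 to 0.54) the intervals held differences of at most 0.54, while for Cd3d (-1.57 to 1.86) and Themis A_52_P641716 (-1.40 to 1.73) they left more than 1 log2 unit in either direction.

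Within the transgenic thymus DP cells were compared with IgM- B cells (4 against 2 arrays), where 1.45% of all tested probes passed and no member did. At an unadjusted p under 0.05 stood 5 members, all higher in DP cells, against 19.4% of all tested probes. Themis A_52_P641716 was at 3.14 ± 0.85 (SE, adjusted p = 0.0645), Cd247 A_52_P173555 at 2.01 ± 0.62 (adjusted p = 0.0936), Zap70 A_55_P1969861 at 0.71 ± 0.24 (adjusted p = 0.120) and Lcp2 A_55_P2180949 at 0.86 ± 0.31 (adjusted p = 0.140). With tg B arrays counted as fetal liver B arrays were above, Themis A_55_P1972436 was 2.15-fold (1.11 on the log2 scale) higher in DP cells. This is no lower bound either, and the measured means were -4.19 and -7.46 (adjusted p = 0.144). This probe passed the filter only through wt DP cells. All 4 DP arrays were above both B arrays for 6 of 13 members, 46.2%, against 13.3% of all tested probes. These were Cd3d, both Cd247 probes, Zap70 A_55_P1969861, Lcp2 A_55_P2180949 and Themis A_52_P641716. The median difference was 0.71 over the members and 0.18 over all tested probes, with median scaling 0.43 and -0.10, and without tg B 23 0.35 and 0.08. The tg DP arrays (slides 1 and 2) and the tg B arrays (slide 4) shared no slide, and with slide as a block the medians were -0.09 and -0.0020. That fit ties slide 4 to the other slides only through IgM+ 19, so its values here rest on that array. In that fit Cd3d turned from 1.94 to -0.55 ± 1.36 (SE) and Cd247 A_55_P2212968 from 0.96 to -0.54 ± 1.04. Themis A_52_P641716 was at 0.99 ± 1.23, Zap70 A_55_P1969861 at 0.67 ± 0.48, Lcp2 A_55_P2180949 at 1.39 ± 0.54 and Cd247 A_52_P173555 at 2.58 ± 1.23. With normexp background correction the Themis differences were 1.83 and 0.90, the latter under the 1.11 given. With quantile scaling Lcp2 A_55_P2180949 was at 0.52. Median scaling gave 0.43 for Zap70 A_55_P1969861.

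The comparison hung on its few arrays. Without SP4 10 or SP4 11, which enter through the shared estimate of spread, the first Themis probe passed (adjusted p = 0.0382 and 0.0342), and without tg DP 4 the second did (4.35, adjusted p = 0.0442). Without tg B 22 the group was tg B 23 alone, the array with the fewest probes above background, assumed to vary like the other groups. Then Cd247 A_52_P173555 (2.70, adjusted p = 0.0239) and Zap70 A_55_P1969861 (1.16, adjusted p = 0.0054) passed as higher and Lck as lower (-0.82, adjusted p = 0.0386) in DP cells. Without tg B 23 the Zap70 difference was 0.26 and that of Cd247 was 1.32.

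**Figure D5:**
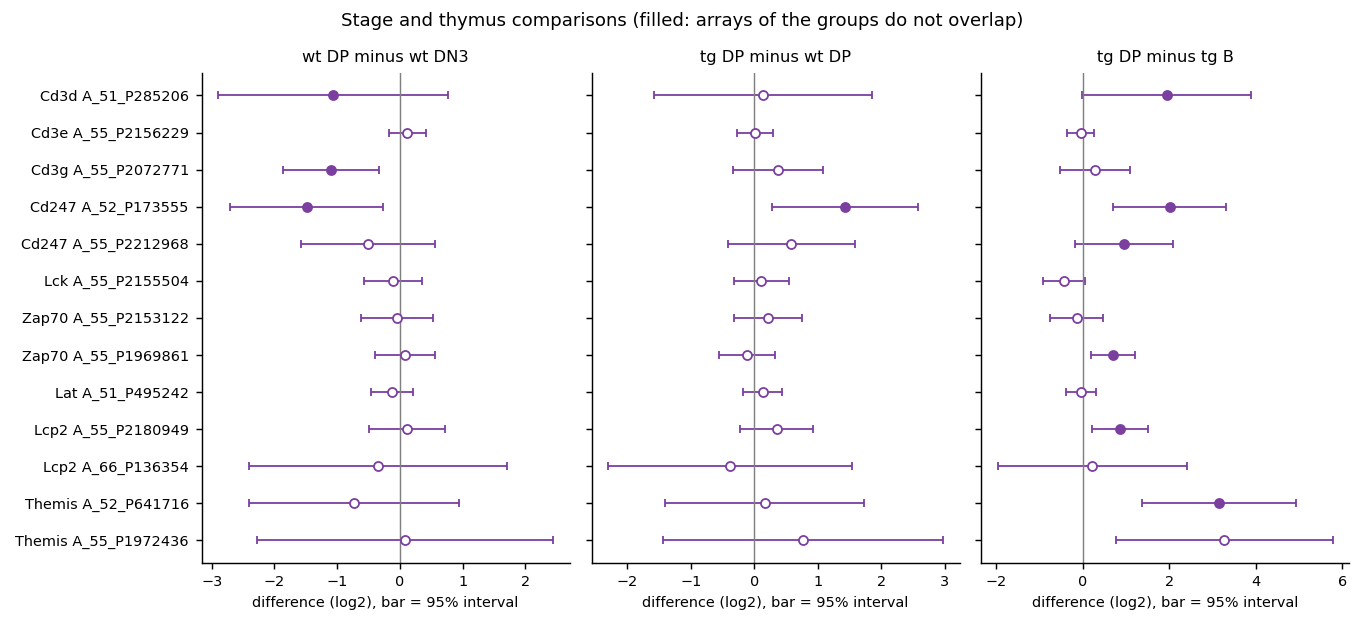
Differences of the 13 member probes on the log2 scale with 95% intervals for wt DP minus wt DN3, tg DP minus wt DP and tg DP minus tg B; points are filled where the arrays of the groups do not overlap. Cd247 A_52_P173555 is filled in all 3 panels, at -1.49, 1.43 and 2.01, while Cd3e and Lat lie between -0.13 and 0.13 in each.

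B cells from the tg thymus were set against fetal liver IgM- B cells (2 against 3 arrays), where 0.034% of all tested probes passed and no member did. At an unadjusted p under 0.05 stood 1 member, against 16.5% of all tested probes: Zap70 A_55_P1969861, at -0.62 ± 0.25 (SE, adjusted p = 0.243). It was at -0.32 with median scaling, at -0.17 without tg B 23 and passed at -1.07 without tg B 22 (adjusted p = 0.0125). All tg B arrays were below all IgM- arrays for 4 members (30.8%, against 25.4% of all tested probes), a share near the background. The median difference was -0.45 over the members and -0.27 over all tested probes, and with median scaling -0.15 and 0.03. The difference of tg from wt DP cells was also tested against that of tg thymic from fetal liver IgM- B cells, which differ in organ as well as in Foxn1 and transgenes. This passed for 0.00566% of all tested probes and no member. Cd247 A_52_P173555 had the one unadjusted p under 0.05 there, with a difference between both of 2.33 ± 0.85 (adjusted p = 0.445), against 9.23% of all tested probes.

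All 40 genes of a further list of T cell receptor signalling kinases, adaptors, phosphatases and their targets were on the array, with 62 probes tested. Of these 0 passed between wt thymocytes and fetal liver B cells, 14 had an unadjusted p under 0.05 (22.6%, against 12.0% of all tested probes), 47 were higher in thymocytes (75.8%, against 58.8%), and the median difference was 0.38, against 0.07 over all tested probes. Among those with the smallest p, the adaptor Grap2 was at 2.29 ± 0.68 (SE, adjusted p = 0.182; 0.14 with slide as a block), the diacylglycerol kinase Dgka at 1.35 ± 0.47 and the transcription factor Nfatc3 at 0.66 ± 0.19. In tg DP against tg B cells 1 of 62 passed, 19 had an unadjusted p under 0.05 (30.6%, against 19.4% of all tested probes) and 49 were higher in DP cells (79.0%, against 60.8%), with a median of 0.83 against 0.18 over all tested probes. In tg against fetal liver IgM- B cells 0 of 62 passed, 13 had an unadjusted p under 0.05 (21.0%, against 16.5%) and 13 were higher (21.0%, against 34.1%), with a median of -0.73 against -0.27. Of the 63 probes of the list, 10 were not well above background on any tg B array, against 2 in tg DP and 1 in fetal liver IgM- cells. These counts rest on 2, 4 and 3 arrays. Of all probes, 89.5% and 80.5% were well above background on tg B 22 and 23. That share was 87.9% to 94.9% on tg DP and 92.2% to 96.2% on IgM- arrays. The matching count over all probes is not given, so no difference between the groups is read from these counts. List medians under other scalings, with slide as a block or without tg B 23 are not given here.

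The B cell counterparts of the members, 13 genes with 18 probes tested, had 0 probes passing between wt thymocytes and fetal liver B cells and 5 with an unadjusted p under 0.05 (27.8%, against 12.0% of all tested probes). The receptor chains Cd79a and Cd79b were at -1.49 ± 0.46 (SE, adjusted p = 0.200) and at -0.46 ± 0.19 (adjusted p = 0.341), and Syk, the relative of ZAP-70, at -0.45 ± 0.19 (adjusted p = 0.346). The median of the 18 was -0.12, and 7 were higher in thymocytes (38.9%, against 58.8%). Of the receptor and coreceptor genes, 6 of 9 were matched by name, with 8 probes tested and 0 passing between the lineages. The probe named Tcra, for the receptor's alpha chain, was lower in thymocytes, at -0.32 ± 0.10 (adjusted p = 0.218), and a Cd8a probe higher, at 1.61 ± 0.55 (adjusted p = 0.238). Trac, Trbc1 and Trbc2 were not matched under these names and are not analysed here.

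Likeness to the members was measured as Spearman's rho over the 24 arrays, for the 3 member probes with the smallest F test p, and is a description of arrays that share groups, slides and signal quality. The first Themis probe was most like probes of Olfr1465 (0.85), Olfr1288 (0.84) and Churc1 (0.83), and among the members most like Cd3d (0.73). The second was most like Mad2l1 and Srsf2 (0.81 each) and Gtf3c1 (0.80). Cd247 A_52_P173555 was most like Ednra (0.74), Kmt2b (0.72) and Tmpo (0.69). Of the members other than their own gene, the second Themis probe and Cd247 A_52_P173555 were nearest to each other (0.56).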

How the data were processed

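The deposited spot files hold intensities from Feature Extraction 10.7.3.1 (array design 028005), per the file headers: a processed signal, background-subtracted and detrended, with quality flags. The authors' deposited series matrix gives log2 values with equal distributions (median 7.93 on each array); how it was made was not given in the sources used here. These values were an alternative. Per the labels, RNA of few sorted cells was amplified by PCR before labelling with Cy3.

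Of 62976 spots per array, 3671 control spots were left out, and 248 non-uniform values were set missing; no spot was saturated. Spots of 1 probe were averaged and probes kept separate. The level was the log2 processed signal relative to its array's 75th percentile. A probe was tested if some group had it well above background on all of its arrays. The test was limma (version 3.58.1, R 4.3.3; lmFit, eBayes) on all 24 arrays with group means, Benjamini-Hochberg adjusted over all tested probes, with a threshold of 0.05. The code was tested on simulated data. Intervals are 95%. The number of arrays limits the precision.

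Slides were numbered from the array barcodes. Alternatives changed the scaling, background correction (normexp, offset 50), filter, values, samples in the fit and slide block, averaged arrays of one title number, and left out arrays. All member probes are given by level; differences are given in full at an unadjusted p under 0.05. Of other lists, probes that passed are named, otherwise up to 4 with the smallest p. A few probes chosen this way, 1 of them past the threshold, are not reported here. Gene names of the lists came from a RefSeq gene table for 31220 probes and from the array for 24461. Members and lists were chosen with earlier results of these data known.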

Additional observations from a re-analysis of the deposited data

Results flagged for a closer look

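In tg DP cells, the group with 4 arrays, tg DP 6 stood apart for Cd247 A_52_P173555 at -0.0067, against -1.44 to -1.29 on arrays 4, 6A and 6B. Its gap to the nearest array was larger than Dixon's 95% limit for 4 values. This was 1 of 13 such checks, 1 for each probe, and chance alone gives about 1 in 20. Both the limit and that rate assume independent arrays, while by their titles 6, 6A and 6B may be repeats of 1 sample. Without tg DP 6 the difference of tg from wt DP cells was 1.10.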

How the results depend on the processing

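No paired analysis was possible because the groups share no replicate numbers in the labels. The 16 member differences with an unadjusted p under 0.05 were followed under up to 34 alternative settings, in 538 values. Of these 529 kept their direction and side of the threshold, 6 came to pass it and 3 were reversed. The 3 reversals came with slide as a block, in wt thymocytes against fetal liver B cells: Cd3d -1.86, Themis A_52_P641716 -1.66 and Lcp2 A_66_P136354 -3.03. In that block the only slide with both lineages holds 1 array of each. Differences outside these 16 were not counted, and some of them changed direction with slide as a block too. In tg DP against tg B, Cd3d went from 1.94 to -0.55, Cd247 A_55_P2212968 from 0.96 to -0.54 and Lcp2 A_66_P136354 from 0.23 to -4.17. The count of member probes passing was 0 in each of the 9 comparisons under the other scalings, background, values, filters, the fit of only the groups compared, averaged title numbers and slide as a block. Leaving out 1 array gave 0 to 3 in tg DP against tg B and 0 to 1 in tg B against fetal liver B. Leaving out the 3 arrays that stand apart, chosen after seeing the data, gave 0.

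Counts over all probes moved more. In tg DP against tg B, 768 passed, against 415 with normexp, 273 with quantile scaling, 266 with series matrix values, 64 with slide as a block, 9 with only the groups compared, 5 with title numbers averaged, 66 without the 3 arrays that stand apart and 29 to 9266 without 1 array. Between wt thymocytes and fetal liver B cells 26 passed, against 12 with no filter, 50 with the filter on all 24 arrays, 81 with normexp, 79 with only the groups compared, 4 with title numbers averaged, 142 without the 3 arrays and 0 to 193 without 1 array. In tg B against fetal liver IgM- B cells 18 passed, against 27 with median scaling, 11 with quantile scaling or series matrix values, 32 with normexp, 97 with slide as a block, 0 with only the groups compared, 10 without the 3 arrays and 7 to 7981 without 1 array. In the test of the difference between both tg differences 3 passed, against 0 with normexp, the filter on all 24 arrays or title numbers averaged and 0 to 4193 without 1 array. The highest counts in these 3 comparisons with tg B came without tg B 22. In SP4 against DP 0 passed, against 8 with median scaling, 11 with quantile scaling, series matrix values or the filter on all 24 arrays, 18 with normexp, 4 with only the groups compared, 51 without the 3 arrays and 0 to 11 without 1 array.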
